A study of Rattus norvegicus with 31 samples.

Results

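Oxidative phosphorylation (OXPHOS) genes were examined in the hippocampal CA3 subfield of aged rats that had performed 1 of 2 water maze tasks. The members were all genes whose annotated symbol begins with Nduf, Cox4 to Cox8, Uqcr, Sdha to Sdhd or Atp5. They comprised 80 genes of the 9037 named by single-gene probesets in the deposited values, with 86 probesets that name a single gene. A further 7 probesets name an OXPHOS gene together with a second gene, giving 93 of the 16204 deposited probesets in all. The paper gives more probesets for the array than were deposited, so shares of all probesets refer to the deposited ones. Each gene was represented by its brightest single-gene probeset, and the other probesets were examined afterwards. Of the 80 genes, 38 belong to complex I (6 core, 27 accessory and 5 assembly genes), 8 to complex II (4 subunits and 4 assembly genes), 7 to complex III, 11 to complex IV and 16 to complex V. The mean of each of the 80 over the arrays exceeded a limit of 4 (log2), as did that of every deposited probeset.

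All animals were male Long-Evans rats aged 24 to 26 months, and no treatment was given. Rats were classed as aged unimpaired (AU) or aged impaired (AI) from a learning index in an earlier Morris water maze assessment, judged against the range of young rats. The escape platform was visible in both tasks. In the spatial task (S) it stayed in a fixed place among cues around the maze. In the nonspatial task (NS) the platform was moved between trials and the cues were removed. Each task had 8 trials. All rats later swam a probe trial without the platform, and brains were collected right after it, about 2 hours from task onset. The spatial groups were AU-S (8 rats) and AI-S (8), and the nonspatial groups were AU-NS (8) and AI-NS (7), each rat with 1 array. Both tasks together form AU-act (16 arrays) and AI-act (15 arrays). A further AI-NS array was excluded by the authors. CA3 was dissected from both hemispheres and pooled within each animal, so that in this bulk tissue fewer cells of a type and less RNA per cell cannot be told apart.

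The mitochondrial respiratory chain passes electrons from NADH through complex I, and from succinate through complex II, to ubiquinone, then through complex III and cytochrome c to oxygen at complex IV. Proton pumping by complexes I, III and IV drives ATP synthesis by complex V. Pyramidal neurons of the hippocampus meet most of their energy demand for ion pumping and synaptic transmission by this route. The subunits measured here are encoded in the nucleus, and the mitochondrially encoded subunits are not among the members.

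Transcription of many OXPHOS genes in mammals is known to involve NRF-1, ETS-family factors such as NRF-2/GABP, and YY1. Promoters of 74 of the 80 genes matched a RefSeq table on the rat build GRCr8, which gives 250 bases before and 50 bases after a listed start site. For some genes, Ndufv1 and Ndufb1 among them, that site lies inside the gene rather than at its outer end. Of 6 motifs searched on either strand, the NRF-1 consensus (the longer capitals in the Sdha promoter) was present in 17 of the 74 OXPHOS promoters (23.0%), against 4.25% of all 33469 promoters of the same length. CCGGAAG (ETS type) was present in 24 OXPHOS promoters (32.4%), against 8.75% of all promoters. AAGATGGCG (YY1 type) was present in 10 (13.5%), against 1.73%. TCAAGGTCA (ERR alpha type) was found in 2 (2.7%), against 0.433%. The TATA letters TATAAA were found in 7 (9.46%), against 14.2%, and CCAAT in 25 (33.8%), against 37.5%. The NRF-1, ETS and YY1 letters were thus more frequent among OXPHOS promoters than among all promoters, whereas TATAAA and CCAAT were not. TCAAGGTCA was more frequent too, but on 2 promoters only. The background held every promoter of the list, whether or not its gene was measured here. These matches are descriptions of sequence and were not tested as binding sites. The promoters of the 4 genes with the smallest p-values between phenotypes are shown as examples. Of these genes only Sdha passed the adjusted threshold given below. Each runs 5′ to 3′ on the strand of its gene, and capitals mark any match to the 6 motifs on either strand, of which none overlap here.
Sdha (GRCr8 chr1:30764303-30764602, plus strand): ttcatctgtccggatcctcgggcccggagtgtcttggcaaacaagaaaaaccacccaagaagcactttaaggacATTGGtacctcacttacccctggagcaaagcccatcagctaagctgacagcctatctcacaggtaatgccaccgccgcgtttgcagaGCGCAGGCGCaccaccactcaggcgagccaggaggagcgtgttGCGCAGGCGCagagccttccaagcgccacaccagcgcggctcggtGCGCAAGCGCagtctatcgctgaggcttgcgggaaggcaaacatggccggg
Ndufv1 (GRCr8 chr1:210734842-210735141, minus strand): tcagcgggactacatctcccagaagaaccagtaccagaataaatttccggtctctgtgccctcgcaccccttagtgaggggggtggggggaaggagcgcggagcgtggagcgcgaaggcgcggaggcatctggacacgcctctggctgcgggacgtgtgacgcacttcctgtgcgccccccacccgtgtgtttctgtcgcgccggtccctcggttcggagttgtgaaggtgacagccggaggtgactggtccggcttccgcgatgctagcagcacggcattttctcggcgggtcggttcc
Cox5a (GRCr8 chr8:66818034-66818333, plus strand): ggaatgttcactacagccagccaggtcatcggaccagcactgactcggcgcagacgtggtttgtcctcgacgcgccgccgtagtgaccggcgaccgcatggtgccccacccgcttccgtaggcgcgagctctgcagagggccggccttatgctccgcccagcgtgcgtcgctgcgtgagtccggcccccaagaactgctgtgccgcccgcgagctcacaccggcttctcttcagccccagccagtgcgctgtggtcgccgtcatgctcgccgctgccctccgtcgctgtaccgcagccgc
Ndufb1 (GRCr8 chr6:126888815-126889114, minus strand): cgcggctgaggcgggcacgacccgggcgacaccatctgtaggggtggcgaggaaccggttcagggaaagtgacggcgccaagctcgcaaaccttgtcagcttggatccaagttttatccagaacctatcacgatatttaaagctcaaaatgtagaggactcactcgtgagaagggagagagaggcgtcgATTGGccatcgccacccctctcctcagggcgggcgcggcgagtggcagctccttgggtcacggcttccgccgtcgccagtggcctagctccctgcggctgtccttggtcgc
The Sdha promoter held 3 NRF-1 type matches and 1 CCAAT match on the opposite strand. The Ndufb1 promoter held 1 CCAAT match on the opposite strand. None of these 6 strings of letters occurred in the Ndufv1 and Cox5a windows.

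The first comparison asked whether OXPHOS transcripts differed between aged rats with preserved and with impaired memory after both tasks. Sdha, the flavoprotein subunit of complex II that oxidises succinate, rose in AU-act and was the only one of the 80 genes called. Its log2 intensity in AU-act ran from 12.50 through a median of 12.65 to 12.97, and in AI-act from 12.33 through a median of 12.54 to 12.70. The groups overlapped, but 15 of 16 AU-act arrays lay above the AI-act mean. The difference (AU-act minus AI-act) was 0.15 ± 0.04 on the log2 scale (SE), a ratio of 1.11, with an adjusted p of 0.029 in limma. The threshold was an adjusted p of 0.05, with adjustment over all probesets. By this rule 5.51% of all probesets were called, 810 higher and 83 lower in AU-act, against 1 of 80 OXPHOS genes (higher) here. At an unadjusted p under 0.05, the count was 3 higher and 8 lower, together 13.8% of the members against 19.5% of all probesets.

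The RNA controls moved with phenotype beside this result. For the control probesets of beta-actin and Gapdh, averaged, the 3′ signal exceeded the 5′ signal by 1.45 ± 0.10 in AU-act and 1.59 ± 0.13 in AI-act (log2, SD; permutation p = 0.00066, 100000 resamples, two-sided), and for the hexokinase controls by 1.41 ± 0.15 in AU-act and 1.79 ± 0.27 in AI-act (permutation p = 6e-05). With the beta-actin and Gapdh measure as a covariate the Sdha difference was 0.17 with an adjusted p of 0.19, and calls over the whole table fell to 1 of 16204. With the hexokinase measure as a covariate, a choice made once the data had been seen, the difference was 0.16 with an adjusted p of 0.62 and calls over the table fell to 0. Sdha was also not called after quantile normalization (0.12, adjusted p = 0.076) or without AI-NS replicate 8, AU-NS replicate 2 or AU-S replicate 3 (adjusted p of 0.055, 0.051 and 0.0502). Its difference was above 0 in every alternative run, between 0.12 and 0.17.

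**Figure D1:**
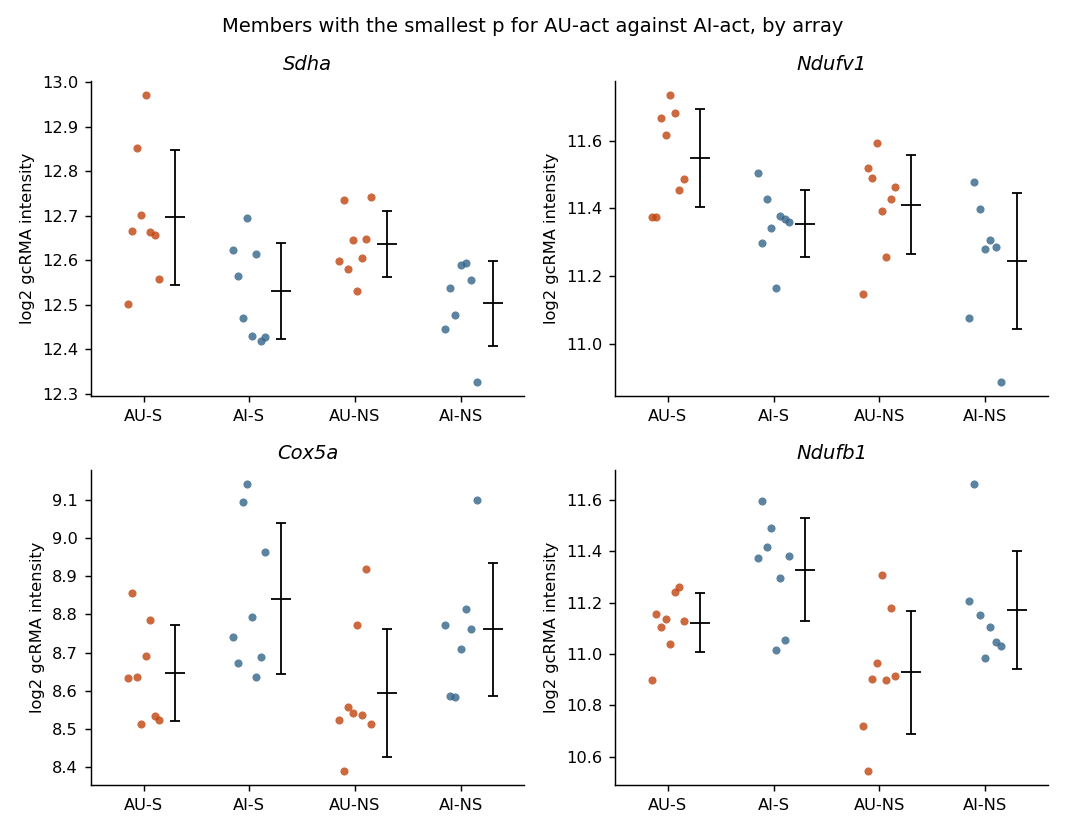
Log2 gcRMA intensity of Sdha, Ndufv1, Cox5a and Ndufb1 (vertical axes, which do not start at 0) on each array, by group. Points are arrays, with mean and SD beside them, for AU-S (n = 8), AI-S (8), AU-NS (8) and AI-NS (7). In both tasks Sdha and Ndufv1 had the higher mean in AU and Cox5a and Ndufb1 the higher mean in AI, and the groups overlapped in every panel.

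The Sdha difference had the same direction within each task. In the spatial task Sdha was 12.50, 12.66 and 12.97 (lowest, median and highest) in AU-S and 12.42, 12.52 and 12.70 in AI-S, a difference of 0.17 ± 0.07 (SE; adjusted p = 0.34). In the nonspatial task it was 12.53, 12.62 and 12.74 in AU-NS and 12.33, 12.54 and 12.59 in AI-NS, a difference of 0.13 ± 0.05 (adjusted p = 0.35). Neither passed the adjusted threshold of 0.1 used within a task. The other complex II subunits differed less, and none of them was called. The iron-sulfur subunit Sdhb differed by 0.03 ± 0.06, the membrane anchors Sdhc and Sdhd by -0.03 ± 0.05 and 0.0021 ± 0.06 (log2, SE).

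A further 3 members lay close to the threshold without passing it. Ndufv1, the complex I core subunit that binds NADH and FMN, ran from 11.15 through a median of 11.48 to 11.73 in AU-act and from 10.89 through 11.34 to 11.50 in AI-act (log2 intensity). The difference was 0.18 ± 0.06 (SE, adjusted p = 0.061), with 14 of 16 AU-act arrays above the AI-act mean. Cox5a, a nuclear-encoded complex IV subunit that faces the matrix, ran from 8.39 through 8.55 to 8.92 in AU-act and from 8.58 through 8.76 to 9.14 in AI-act. Its difference was -0.18 ± 0.06 (adjusted p = 0.062), with 14 of 16 AU-act arrays below the AI-act mean. A second and brighter probeset, which also names LOC100361008, differed by -0.05 ± 0.07, so that the Cox5a value rests on the dimmer probeset. Ndufb1, an accessory subunit in the membrane arm of complex I, ran from 10.55 through 11.07 to 11.31 in AU-act and from 10.99 through 11.21 to 11.66 in AI-act. Its difference was -0.23 ± 0.08 (adjusted p = 0.066), again with 14 of 16 AU-act arrays below the AI-act mean. RefSeq lists 3 copies named after Ndufb1, and 43 of the 80 members have at least 1 such copy, whose transcripts the probes may share.

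Read across the complexes, most members had slightly lower means in AU-act. In all, 63 of 80 differences were below 0 (78.8%), against 46.7% of all probesets, with a median of -0.04 against 0.0072 over all probesets. The members share arrays and move together, so these are not 80 separate observations. Per array, the mean deviation of the 80 genes from their own means was -0.02 ± 0.14 in AU-act and 0.02 ± 0.17 in AI-act (log2, SD), and the groups overlapped. The core subunits of complex I had a median of 0.06, and 4 of 6 were above 0. Besides Ndufv1 these included the iron-sulfur subunit Ndufs1 (0.06 ± 0.03, adjusted p = 0.2) and Ndufs3 of the peripheral arm (0.07 ± 0.08). Ndufs7, which carries the last iron-sulfur cluster before ubiquinone, differed by -0.04 ± 0.10. The 27 accessory subunits of complex I had a median of -0.07, and 23 of 27 were below 0. Among them Ndufa7 and Ndufc1 differed by -0.17 ± 0.08 and -0.11 ± 0.06. Of the complex I assembly genes, Ndufaf8 differed by -0.16 ± 0.08 (adjusted p = 0.24), Ndufaf4 by -0.01 ± 0.03 and the methyltransferase Ndufaf7 by 0.02 ± 0.05.

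The complex II subunits had a median of 0.01, whereas their 4 assembly genes had a median of -0.08. Sdhaf3, which assists maturation of the iron-sulfur subunit, differed by -0.18 ± 0.07 (adjusted p = 0.12), and 14 of 16 AU-act arrays lay below the AI-act mean. Sdhaf4, a chaperone of Sdha, differed by -0.10 ± 0.09. All 7 complex III genes were below 0 at their brightest probesets with a median of -0.03, and the differences were small. Uqcr10 was -0.08 ± 0.07, the hinge protein Uqcrh -0.06 ± 0.06 and the core protein Uqcrc2 -0.02 ± 0.04. The dimmer Uqcrc2 probeset was above 0 (0.07 ± 0.04). Without single arrays the complex III median ran from -0.046 to 0.0070. All 11 complex IV genes were below 0 with a median of -0.04. After Cox5a, the small membrane subunits Cox7b and Cox7c differed by -0.11 ± 0.07 and -0.10 ± 0.07.

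Complex V had a median of -0.04, with 12 of 16 genes below 0. Atp5mk, a small supernumerary subunit linked to ATP synthase dimers, differed by -0.16 ± 0.06 (adjusted p = 0.12). The membrane subunit Atp5me differed by -0.19 ± 0.08 and the inhibitory factor Atp5if1 by -0.14 ± 0.06 (adjusted p of 0.18 and 0.2). Atp5f1a and Atp5f1b, the alpha and beta subunits of the catalytic head, differed by 0.08 ± 0.04 and 0.07 ± 0.04, and Atp5f1e, the epsilon subunit of the central stalk, differed by -0.17 ± 0.08, these 3 genes being named after their values were seen. The 7 probesets shared with a second gene were all below 0, with a median of -0.08.

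**Figure D2:**
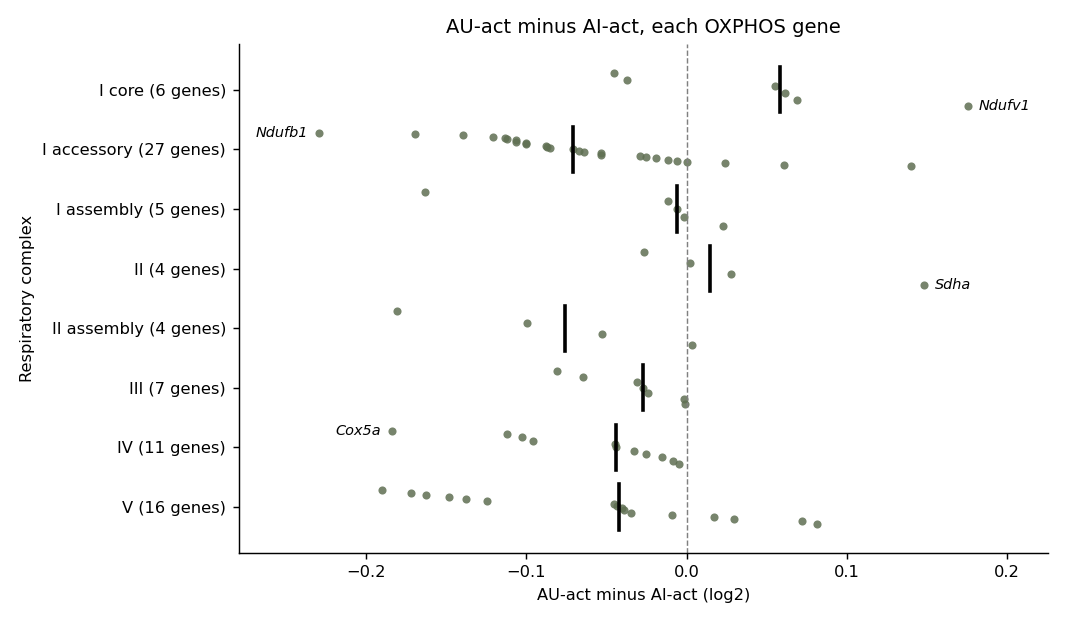
AU-act minus AI-act difference (log2, horizontal axis) of each of the 80 genes at its brightest probeset, by respiratory complex (vertical axis), with 16 AU-act and 15 AI-act arrays. Points are genes and black bars are medians, which run from -0.08 for complex II assembly genes to 0.06 for complex I core subunits, and all genes of complexes III and IV lie below 0.

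The count of members below 0 changed when dissection markers or the hexokinase measure entered the fit. With the scores of dentate granule and CA1 markers as covariates, 46 of 80 members were below 0 with a median of -0.01, and both Sdha and Ndufv1 were called. With the hexokinase covariate, chosen once the data had been seen, 34 of 80 were below 0 and the median was 0.01. The count with the beta-actin and Gapdh covariate is not given here, so this holds for the hexokinase measure only. The 2 measured dentate granule markers, Calb1 and Prox1, both had lower means in AU-act, and their mean deviation from the overall level was -0.15 ± 0.23 in AU-S and 0.30 ± 0.35 in AI-S, and 0.01 ± 0.13 in AU-NS and -0.19 ± 0.37 in AI-NS (log2, SD). The part of RNA quality and of dissection in the differences was not tested further.

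Within the spatial task no member was called, against 0.413% of all probesets at an adjusted p of 0.1, and the smallest adjusted p was 0.23 (Ndufv1). At an unadjusted p under 0.05 there were 2 higher in AU-S (Ndufv1 and Sdha) and 9 lower, together 13.8% of the members against 12.3% of all probesets. In AU-S 67 of 80 members had means below those of AI-S (83.8%, against 46.1% of all probesets), with a median of -0.07 against 0.01 over all probesets. Within the nonspatial task no member was called either, nor was any probeset of the table (0%), and the smallest adjusted p among the members was 0.35 (Sdha). At an unadjusted p under 0.05, 1 member (1.25%) passed, against 11.5% of all probesets. Here 40 members lay above and 40 below 0 (50%, against 47.3% of all probesets below 0), with a median of -0.0021. Without 1 array at a time the nonspatial median ran from -0.044 (without AU-NS replicate 5) to 0.045 (without AU-NS replicate 1). It was 0.042 without AI-NS replicate 3. The spatial median ran from -0.12 (without AI-S replicate 5) to -0.045 (without AI-S replicate 1). These ranges came close at their nearest ends but did not overlap. Such ranges show the influence of single arrays rather than the spread between rats, so they cannot decide whether the phenotype difference changed with task. The mean deviation of the 80 genes per array was 0.02 ± 0.09 in AU-S and 0.09 ± 0.16 in AI-S (log2, SD). It was -0.06 ± 0.17 in AU-NS and -0.05 ± 0.15 in AI-NS, and the phenotypes overlapped in both tasks.

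For the interaction of phenotype and task, no member was called and none had an unadjusted p under 0.05, against 2.44% of all probesets (0% called after adjustment). The interactions farthest from 0 at the brightest probeset were -0.31 ± 0.20 for the delta subunit Atp5f1d, -0.23 ± 0.19 for Ndufa11 of the complex I membrane arm and -0.22 ± 0.19 for Ndufs7. Atp5f1d differed by -0.18 ± 0.12 between AU-S and AI-S and by 0.13 ± 0.15 between AU-NS and AI-NS.

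The second question was whether the task itself changed OXPHOS transcripts. No member was called for AU-S against AU-NS (smallest adjusted p = 0.6) or for AI-S against AI-NS (0.86), and no probeset of the table was called (0% for both). The direction was nevertheless shared by nearly all members. In AU rats 68 of 80 members were higher in S (85%, against 47% of all probesets) with a median of 0.07, and 14 had an unadjusted p under 0.05 (17.5%, against 8.12%). In AI rats 79 of 80 were higher in S (98.8%, against 47.3%) with a median of 0.14, and 8 had an unadjusted p under 0.05 (10%, against 4.09%).

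Pooling both phenotypes, with phenotype as a term in the fit, was added after these values were seen. No member was called (0% of all probesets, smallest adjusted p = 0.31), but 78 of 80 members were higher in S (97.5%, against 46.5% of all probesets). The exceptions were Uqcrc2 (-0.06 ± 0.04) and Ndufaf7 (-0.04 ± 0.05). The median was 0.11, against -0.0073 over all probesets. At an unadjusted p under 0.05 there were 27 members, all higher in S (33.8%, against 5.73% of all probesets in that direction). Complex I accessory subunits accounted for 11 of them, complexes IV and V for 5 each, and complex II subunits for none. The medians by complex were narrow in range: 0.12 for complex I core, 0.12 for complex I accessory, 0.07 for complex II, 0.11 for complex III, 0.12 for complex IV and 0.11 for complex V.

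The 5 members with the smallest p in this comparison, named after their values were seen, came from complexes I and V. Ndufv2, an iron-sulfur core subunit of complex I, ran from 11.20 through a median of 11.51 to 11.94 in S and from 10.99 through 11.31 to 11.60 in NS (log2 intensity). The difference (S minus NS) was 0.20 ± 0.06 (SE), and 15 of 16 S arrays lay above the NS mean. Ndufs6, a zinc-binding accessory subunit, ran from 11.93 through 12.24 to 12.43 in S and from 11.80 through 12.06 to 12.25 in NS, a difference of 0.17 ± 0.05. The accessory subunits Ndufa6 and Ndufb7 differed by 0.22 ± 0.07 and 0.22 ± 0.06, and the ATP synthase subunit Atp5mf by 0.18 ± 0.06. All 5 overlapped between the tasks, and their adjusted p was 0.31. Sdha differed little between tasks (0.04 ± 0.04), as did Atp5f1a (0.001 ± 0.04) and Atp5f1b (0.02 ± 0.04).

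**Figure D3:**
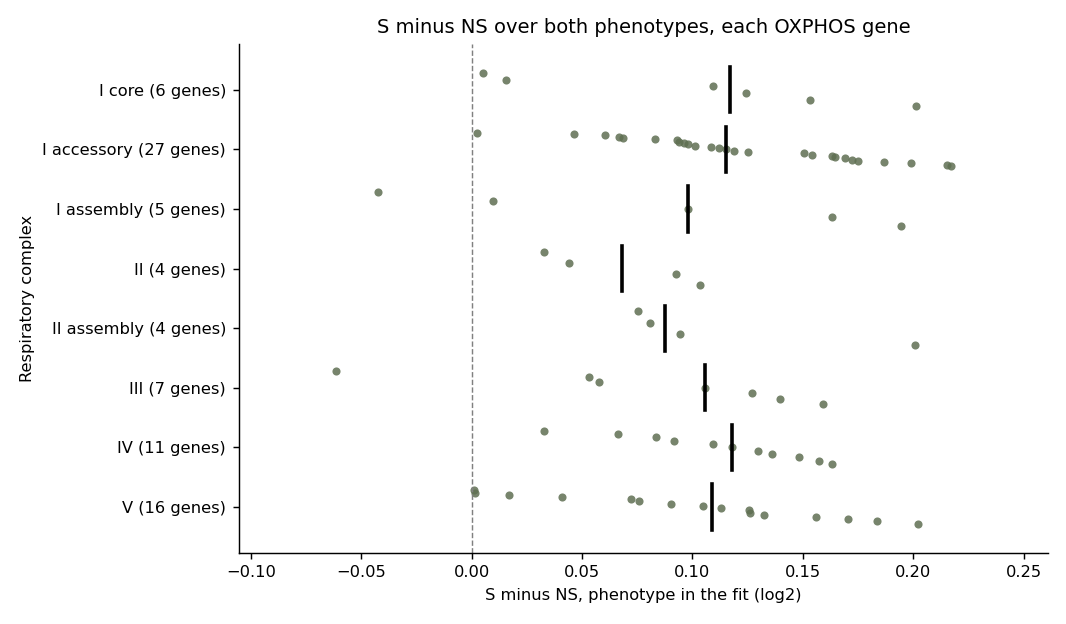
S minus NS difference (log2, horizontal axis) of each of the 80 genes by respiratory complex (vertical axis), from the fit with phenotype as a term on 31 arrays. Points are genes and black bars medians; 78 of 80 genes lie above 0, and no gene passed the adjusted threshold.

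Because the members share arrays and move together, these counts are not 80 separate observations, and the level of the whole set per array was examined. The mean deviation of the 80 genes from their own means was 0.02 ± 0.09 in AU-S, 0.09 ± 0.16 in AI-S, -0.06 ± 0.17 in AU-NS and -0.05 ± 0.15 in AI-NS (log2, SD). Arrays ran from -0.16 to 0.14 in AU-S, from -0.19 to 0.28 in AI-S, from -0.38 to 0.20 in AU-NS and from -0.18 to 0.26 in AI-NS, so that all 4 groups overlapped. The lowest array was AU-NS replicate 1 (-0.38), and AI-NS replicate 3 (0.26) lay apart from the other AI-NS arrays, which did not exceed -0.03. Without AU-NS replicate 1 the median S minus NS difference was 0.08, and without AI-NS replicate 3 it was 0.14. The corresponding medians for AU-act minus AI-act were -0.01 and -0.02. With the granule and CA1 marker scores as covariates, 74 of 80 members were still above 0 for S minus NS, with a median of 0.07 and 17 at an unadjusted p under 0.05. Over both phenotypes all 4 measured CA1 markers, both dentate granule markers and both measured microglia markers (Aif1 and Csf1r) had higher means in S, with medians of 0.10, 0.16 and 0.24, and none was called. Within phenotypes only the microglia markers kept this direction (medians of 0.22 in AU and 0.27 in AI). Both granule markers were lower in AU-S than in AU-NS (median of -0.15) and higher in AI-S than in AI-NS (0.49). The CA1 medians were 0.19 in AU, with 4 of 4 above 0, and 0.0059 in AI, with 2 of 4 above 0. The mean deviation of the granule markers ran from -0.45 to 0.79 in S and from -0.56 to 0.50 in NS, that of the CA1 markers from -0.40 to 0.45 in S and from -0.98 to 0.99 in NS, and that of the microglia markers from -0.21 to 0.92 in S and from -0.61 to 0.54 in NS. Of 5 CA3 markers 2 had higher means in S. The part of these cells in the result was tested only through the granule and CA1 covariates. The beta-actin and Gapdh control measure was 1.54 ± 0.11 in S and 1.5 ± 0.15 in NS (permutation p = 0.44).

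**Figure D4:**
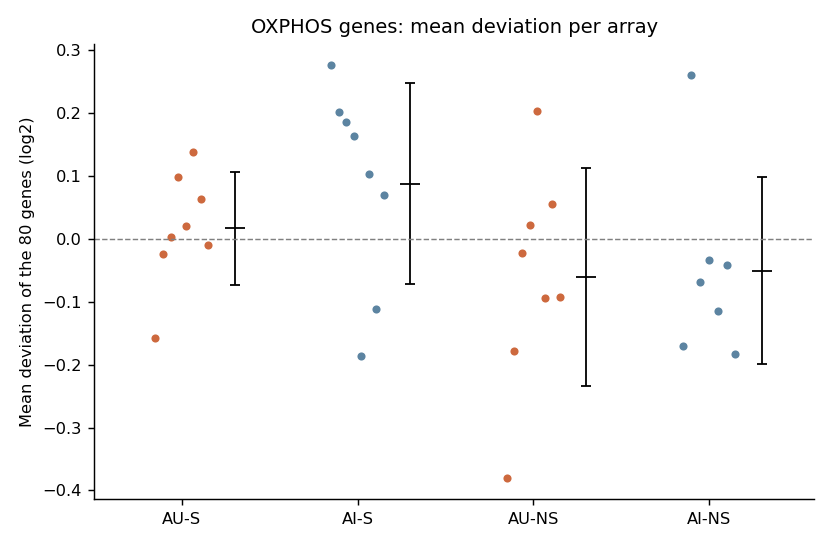
Mean deviation of the 80 OXPHOS genes from their own means over 31 arrays (log2, vertical axis) on each array, by group. Points are arrays, with the group mean and SD beside them; the means are 0.02 in AU-S, 0.09 in AI-S, -0.06 in AU-NS and -0.05 in AI-NS, and the groups overlap.

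For 6 genes a second single-gene probeset was available. For 3 of them the AU-act minus AI-act difference kept its sign: Ndufa9 (0.02 ± 0.05 at the brighter and 0.07 ± 0.05 at the dimmer probeset), Ndufv3 (0.06 ± 0.06 and 0.12 ± 0.09) and Sdhd (0.0021 ± 0.06 and 0.06 ± 0.08). It differed in sign for Ndufa7 (-0.17 ± 0.08 and 0.07 ± 0.07), Uqcrc2 (-0.02 ± 0.04 and 0.07 ± 0.04) and Ndufaf7 (0.02 ± 0.05 and -0.02 ± 0.08). The second Uqcrc2 probeset had an interaction of -0.19 (adjusted p = 1). No call was gained or lost when all 93 probesets were counted.

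Other genes of mitochondrial energy metabolism were examined beside the members. Among 13 electron carrier genes, 9 genes of adenine nucleotide, phosphate and anion channels and 22 regulators of mitochondrial gene expression, none was called for AU-act against AI-act (medians of -0.02, 0.05 and -0.03). Of 30 assembly factors of complexes III to V, Ttc19, which acts in complex III, was higher in AU-act (0.12 ± 0.04, adjusted p = 0.038), and none was lower. Of 17 genes of uncoupling and mitochondrial stress, 4 were higher in AU-act and none lower. These were the outer membrane fusion protein Mfn2 (0.16 ± 0.04, adjusted p = 0.0046), the superoxide dismutase Sod2 (0.21 ± 0.05, adjusted p = 0.015), the inner membrane fusion protein Opa1 (0.34 ± 0.10, adjusted p = 0.028) and, named after its value was seen, the chaperone Hspa9 (0.19 ± 0.06, adjusted p = 0.048). Over all probesets 5.51% were called, 810 higher and 83 lower. With either the beta-actin and Gapdh covariate or the hexokinase covariate, no gene of these lists was called. Nearly all calls over the whole table were lost with these covariates, so the loss is not particular to these genes.

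Markers of CA3 and also of neighbouring cells were among the deposited probesets, and the arrays do not by themselves show how pure the dissection was. Every deposited probeset passed the intensity limit of 4, so passing it says nothing about which cells were in the tissue. All 5 measured CA3 pyramidal markers had higher means in AU-act (median of 0.07, 2 at an unadjusted p under 0.05), as did 4 of 5 neuron markers (median of 0.10, 3 at an unadjusted p under 0.05) and all 4 measured oligodendrocyte markers (median of 0.07, 1 at an unadjusted p under 0.05). None of these was called, and their part in the OXPHOS differences was not tested. Among markers of other cells, Gad2, an enzyme of GABA synthesis, was higher in AU-act (0.48 ± 0.14, adjusted p = 0.039). This call was lost with either RNA-control covariate, as were nearly all calls over the table. The 6 interneuron markers, Gad2 included, did not move together: 3 had higher and 3 lower means in AU-act (median of 0.02). At an unadjusted p under 0.05 in limma, 1 was higher and 1 lower. No other marker of interneurons, CA1, dentate granule cells, astrocytes, oligodendrocytes, microglia or endothelium was called, and choroid plexus markers were not measured by single-gene probesets.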

How the data were processed

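RNA from microdissected CA3 of 31 rats was measured on Affymetrix rat arrays, extracted with TRIzol and RNeasy, with 1 array per rat. The authors made the deposited log2 values with gcRMA in R, with versions not given in the sources used here; background correction and quantile normalization in that step fix the intensity scale. Intensities carry no counts; precision is limited by how many arrays there are. Probesets were named with the platform annotation. The authors' limit of 4 on the log2 mean removed no deposited probeset, the lowest probeset mean being 5.00.

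Each comparison was fitted by limma 3.58.1 (R 4.3.3; lmFit, then eBayes, two-sided), and p-values were adjusted after Benjamini-Hochberg over the 16204 probesets and an adjusted p threshold of 0.05 for AU-act against AI-act and 0.1 otherwise. The fit was tried on simulated data in which each probeset was drawn independently. That trial therefore did not cover members that move together or RNA controls that move with phenotype. Permutation tests used scipy 1.17.1. Alternatives covered limits, normalization, weights, covariates, SAM (100 permutations) and left-out arrays. Members and lists were chosen with earlier results of these data known. Named genes were those called, the 3 smallest p-values per complex, the 3 largest interactions, the 5 largest probeset spreads and up to 3 called genes per other list.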

Additional observations from a re-analysis of the deposited data

Results flagged for a closer look

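The highest or lowest array of each group was set against the others by its gap over the group's range for the named genes and the per-array means of the complexes. Of 156 groups examined, 27 (17.3%) held an array beyond the 95% limit, where chance gives about 1 in 20. Genes and complexes share arrays, so these are not separate events.

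AI-NS replicate 3 was high for most of them. Its log2 intensity was 10.98 for Ndufa7, 11.66 for Ndufb1, 9.94 for Ndufv3, 11.31 for Ndufs7, 9.13 for Sdhaf3, 12.26 for Uqcrh, 12.61 for Cox7c and 12.43 for Atp5f1e. Its mean deviation was 0.26 for all OXPHOS genes, 0.27 for complex I core, 0.31 for complex I accessory, 0.29 for complex III, 0.23 for complex IV and 0.29 for complex V. The mean deviation of the dentate granule markers on this array was 0.50, the highest of AI-NS.

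AU-NS replicate 1 was low, with 10.22 for Ndufaf4, 10.04 for Ndufs3, 12.60 for Uqcrc2 and a mean deviation of -0.21 for complex II. AU-S replicate 1 was low for Ndufa9 (10.96), Uqcrh (11.66), Atp5mk (12.66) and complex V (mean deviation of -0.21), and high for Ndufaf4 (10.64). The remaining arrays were AI-S replicate 7 for Ndufaf7 (7.66, low), AI-NS replicate 1 for Ndufaf8 (7.07, low), AU-S replicate 6 for Sdhaf3 (8.83, high) and AU-NS replicate 2 for Atp5me (6.99, low). No named gene had every AU array above every AI array in either task and every AU array below every AI array in the other. Groups that overlap cannot meet this rule, so it says nothing about smaller differences between the tasks.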

How the results depend on the processing

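The number of OXPHOS genes called for AU-act against AI-act was 1 (Sdha). It was 4 with array weights and 4 with SAM, 2 with granule and CA1 marker covariates, 2 in the fit over all 4 groups and 2 with task as a second term. It was 0 with the beta-actin and Gapdh covariate, 0 with the hexokinase covariate (chosen once the data had been seen) and 0 with a replicate block. After quantile normalization the 1 gene called was Ndufb1, lower in AU-act, instead of Sdha. Without each array in turn the count ran from 0 to 3. Ndufv1 was then called without AI-NS replicate 3, AU-NS replicate 1, AU-NS replicate 6 or AI-S replicate 1, Cox5a without AI-NS replicate 3, AI-NS replicate 4, AU-NS replicate 5, AU-NS replicate 7, AI-S replicate 7 or AU-S replicate 2, and Ndufb1 without AU-NS replicate 5 or AI-S replicate 7. For every other comparison of OXPHOS genes the count was 0 in each alternative run. The median difference of the complexes (AU-act minus AI-act) turned sign without single arrays for complex II (from -0.0073 to 0.036), complex III (from -0.046 to 0.0070) and complex I assembly genes (from -0.017 to 0.012), whereas those of complex I core and accessory genes, complex II assembly genes and complexes IV and V kept their sign. With the hexokinase covariate all complex medians except that of complex V (-0.0026) were above 0. The labels number the rats within each group, and same-numbered AU and AI rats did not deviate together. The correlation of their deviations ran from -0.30 to 0.31 over 15 pairs, 3 were over 0.1, and 2 of 15 rats correlated best with their own number. With the replicate block the Sdha difference was 0.15 with an adjusted p of 0.063.

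Several differences of AU-act minus AI-act changed sign. With the hexokinase covariate they were 0.011 for Ndufc1, 0.087 for Sdhaf4 and 0.034 for Uqcrc2, and with the marker covariates 0.023 for Atp5f1d and 0.024 for Ndufs7. Sdhd was -0.011 with median centring, -0.029 with quantile normalization, -0.0092 with array weights and -0.00045 with the replicate block. Ndufa9 was -0.0020 with quantile normalization and -0.042 with the beta-actin and Gapdh covariate, where Sdhb was -0.019. Without each array in turn Sdhd ran from -0.017 to 0.026, Atp5f1d from -0.073 to 0.0098, Ndufs7 from -0.074 to 0.0046, Ndufaf7 from -0.00073 to 0.047 and Sdhb from -0.000215 to 0.051. The cause was not tested.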
